A study of Mus musculus with 6 samples.

Results

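The BCL2 family controls whether a cell permeabilises its mitochondria and dies. The transcripts followed here are those of 10 of its genes, taken by symbol from a table of 24043 gene rows. They are 5 BH3-only genes (Pmaip1, Bbc3, Bcl2l11, Bid and Bad), 2 effectors (Bax and Bak1) and 3 guardians (Bcl2, Bcl2l1 and Mcl1). The assay was RNA-seq of embryonic stem (ES) cells of the mouse, which are pluripotent cells of the early embryo kept in culture. The group labelled Q-KO, said in its genotype label to have no G1 cyclin, held 3 libraries, and the wild-type group held 3. All cells were cultured with the cytokine LIF and with PD184352 and CHIR99021, which inhibit MEK and GSK3. Whether the libraries of a group came from separate clones or cultures is not given in the sources used here, so p-values measure the spread between these libraries, which may be technical. The question asked of the data is which of these genes differ in transcript level in cells labelled as lacking the cyclins that open the cell cycle.

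In the mitochondrial pathway of apoptosis the effectors BAX and BAK form pores in the outer mitochondrial membrane, and cytochrome c that escapes through them switches on caspases. The guardians BCL2, BCL-XL (the product of Bcl2l1) and MCL1 hold the effectors and their activators in check. BH3-only proteins answer stress: some, such as BIM (Bcl2l11), PUMA (Bbc3) and cleaved BID, bind all guardians and can activate the effectors, whereas NOXA (Pmaip1) binds mainly MCL1 and BAD binds BCL2 and BCL-XL. Human pluripotent stem cells are known to stand close to the threshold of this pathway, so that DNA damage kills them readily.

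Values are FPKM, fragments per kilobase of transcript and scaled to the mapped fragments of the library. Levels can be set beside each other between genes only roughly, given the length trend and shared exon bases described below. The FPKM of a library summed to 525134 to 641715 in the libraries labelled Q-KO and to 561019 to 565112 in the wild-type libraries. The number of fragments behind them is not given in the sources used here. Ratios of low values gave a depth of 1.1 to 1.19 for the libraries labelled Q-KO and of 1.22 and 1.12 for wild-type replicates 2 and 3, with wild-type replicate 1 set to 1. All 8 ES cell markers examined, Pou5f1, Sox2 and Nanog among them, passed the filter on low values. Their summed FPKM was 5700 to 10331 in the libraries labelled Q-KO and 5845 to 7249 in the wild-type libraries. Dppa5a supplied most of it, at 3676 to 7781 FPKM in the libraries labelled Q-KO and 3738 to 5022 FPKM in the wild-type libraries. Zfp42 was uneven, at 177, 75.4 and 74.7 FPKM in the libraries labelled Q-KO, against 76.6, 78.9 and 363 FPKM in the wild-type libraries. The G1 cyclin genes Ccnd1, Ccnd3 and Ccne2 passed the limma test used below as falls in the group labelled Q-KO. Ccnd2 was below the filter, at 0.299 to 0.548 FPKM in the libraries labelled Q-KO and 0.0640 to 0.310 FPKM in the wild-type libraries. Ccne1 was at 65.3 to 87.3 FPKM in the libraries labelled Q-KO and at 37.5 to 55.9 FPKM in the wild-type libraries (limma adjusted p = 0.113). Neither Ccnd2 nor Ccne1 was lower in the group labelled Q-KO. Gene-level FPKM cannot show which exons are deleted, so these values do not test the genotype label. The group is called by its label throughout. Y-linked transcripts were present in the 3 libraries labelled Q-KO and in wild-type replicate 3, and were listed at 0 in wild-type replicates 1 and 2. Wild-type replicate 3 was thus no technical repeat of wild-type replicates 1 and 2. Presence of Y-linked transcripts is also partly confounded with the group.

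One BH3-only gene, Pmaip1, rose strongly in the libraries labelled Q-KO, and no other tested member passed in either direction. Groups were compared by limma on log2(FPKM + 1) over the 11573 genes that averaged 1 FPKM or more, adjusted by Benjamini-Hochberg, and a call is an adjusted p under 0.05. Of the 10 members 9 could be tested, since Bcl2 was below that level. Of the 9, 1 rose and 0 fell. Over all genes tested 4.06% passed, 3.04% as rises, and rises made up 74.9% of the calls. That share depended on scaling, at 61.8% after median-of-ratios scaling, 54% after quantile normalization, 57.4% after removal of a trend with transcript length and 60.5% after removal of a trend with GC content. The values of the 2 groups did not overlap for 4 of the 9 members (Pmaip1, Bid, Bad and Bcl2l1), each higher in the libraries labelled Q-KO, where 27.7% of all genes tested had separate values and 18.2% had them higher. The log2 change was above 0 for 8 of the 9, with a median of 0.24, against 6861 of 11573 and a median of 0.072 over all genes tested.

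**Figure D1:**
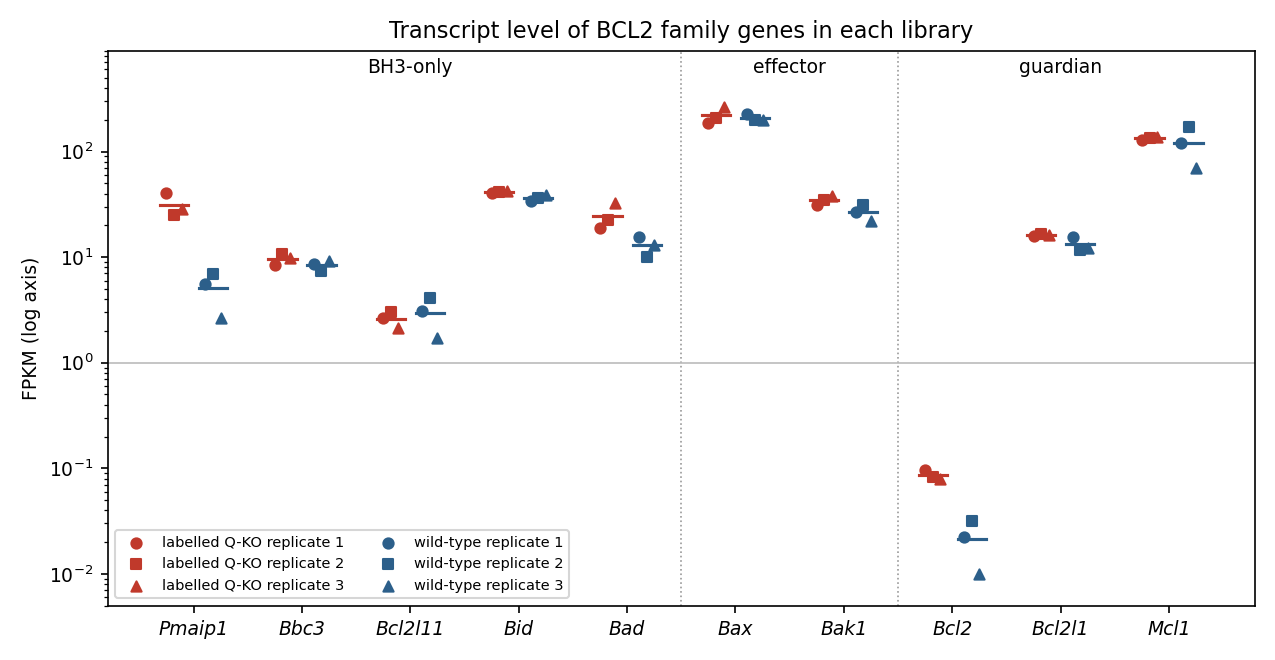
FPKM (log axis) of the 10 members in each library, with red symbols for the libraries labelled Q-KO, blue symbols for wild-type, 1 symbol shape per replicate number, and a bar at the group mean. The grey line marks 1 FPKM; Pmaip1 is at 25.0 to 40.9 FPKM in the libraries labelled Q-KO and at 2.66 to 6.86 FPKM in wild-type, and Bcl2 is below 0.1 FPKM throughout.

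Pmaip1 encodes NOXA, which binds MCL1 and is known to hasten its breakdown, and is a target of p53. The transcript was at 40.9, 25.0 and 28.5 FPKM in replicates 1, 2 and 3 labelled Q-KO, against 5.62, 6.86 and 2.66 FPKM in wild-type replicates 1, 2 and 3. The lowest library labelled Q-KO was 3.65 times the highest wild-type library, so the groups were far apart. The means were 31.5 ± 8.34 FPKM in the libraries labelled Q-KO and 5.05 ± 2.16 FPKM in the wild-type libraries (± SD, n = 3 each, as in every later mean), a ratio of 6.23. On the log2 scale Pmaip1 rose by 2.47 (SE 0.30, 95% interval 1.77 to 3.16, limma adjusted p = 0.0095). Among all genes tested 35 had a larger log2 change and 41 a smaller p. The call was lost without replicate 2 labelled Q-KO (2.61, adjusted p = 0.0564) or without replicate 3 labelled Q-KO (2.52, adjusted p = 0.0535), and held in the other 4 fits that left out 1 library (2.14 to 2.69, adjusted p 0.00286 to 0.0382). With a covariate for presence of Y-linked transcripts, which sets the libraries labelled Q-KO against wild-type replicate 3 alone, the change was 3.12 (adjusted p = 0.00112); that library has the lowest Pmaip1 value of the wild-type group.

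**Figure D2:**
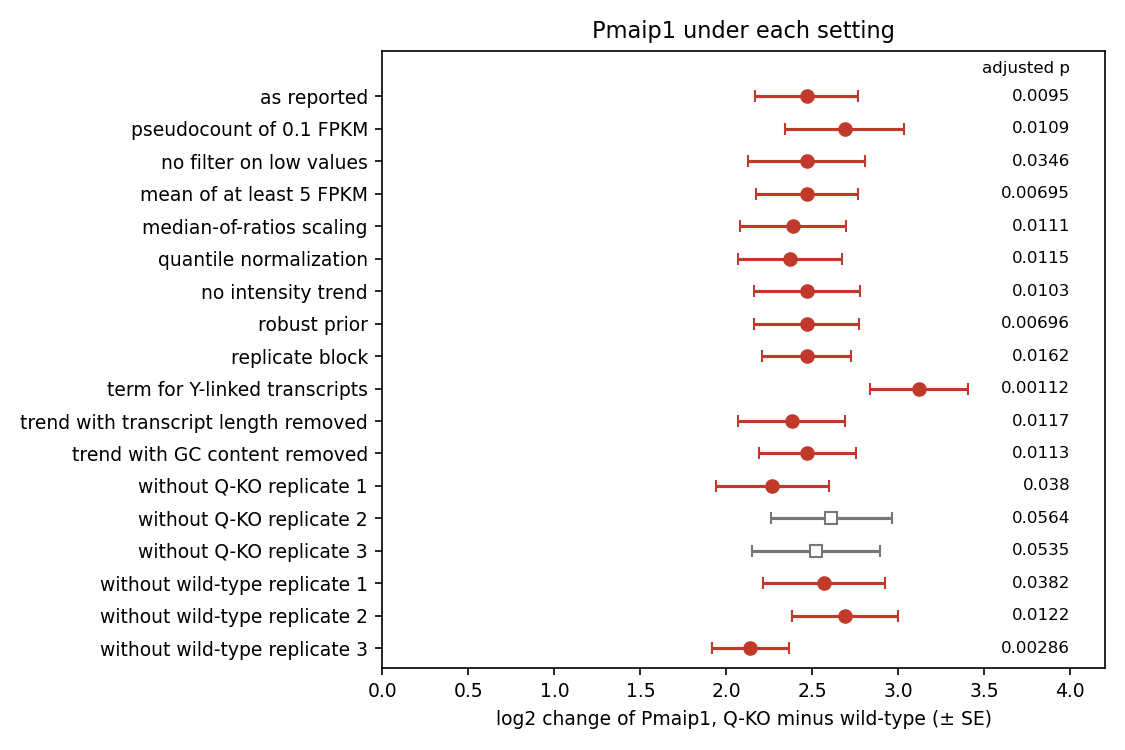
Log2 change of Pmaip1 (Q-KO minus wild-type, x axis, with SE) under each setting (y axis), with the limma adjusted p at the right; filled red circles passed the threshold and open grey squares did not. The change lies between 2.14 and 3.12 under all 18 settings, and the adjusted p is above the threshold without replicate 2 or replicate 3 labelled Q-KO.

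Markers of other cells moved with the groups in part, and their part in the Pmaip1 result was not tested. The 8 fibroblast feeder markers summed to 6.74 FPKM in replicate 1 labelled Q-KO, which also had the highest Pmaip1, and to 1.17 and 1.12 FPKM in the other libraries labelled Q-KO, against 1.74 to 3.12 FPKM in the wild-type libraries. Col1a1 was at 1.86 FPKM in replicate 1 labelled Q-KO and at most 0.168 FPKM elsewhere, and 4 of the 8 markers were below 1 FPKM in every library. Thy1, the 1 feeder marker above the filter, was at 1.36, 0.828 and 0.819 FPKM in the libraries labelled Q-KO, against 1.42, 1.83 and 2.75 FPKM in the wild-type libraries, and so made up most of the wild-type sums. Without replicate 1 labelled Q-KO, Pmaip1 rose by 2.27 (limma adjusted p = 0.038). The 8 markers of differentiated cells summed to 7.47 to 8.77 FPKM in the libraries labelled Q-KO and to 2.66 to 3.30 FPKM in the wild-type libraries. Of these, 6 stayed below 1 FPKM in every library, and Eomes supplied 5.25 to 5.85 FPKM of the sum in the libraries labelled Q-KO and 1.06 to 1.23 FPKM in the wild-type libraries. Eomes passed as a rise (log2 change 1.62, limma adjusted p = 0.00398). Cdx2 and Pax6, both below the filter, were also higher in the libraries labelled Q-KO without overlap. Of the genes above the filter 18.2% were so, and no such share was computed below it. The values of T, Gata6, Sox17, Gata4 and Hand1 overlapped between groups. In bulk RNA, more cells with a transcript and more transcript per cell cannot be told apart.

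Bad had the second largest log2 change of the members but did not pass the test. BAD is the BH3-only protein that growth factor signalling holds inactive by phosphorylation. Its transcript was at 18.7, 22.2 and 32.3 FPKM in replicates 1, 2 and 3 labelled Q-KO, against 15.6, 9.99 and 13.1 FPKM in wild-type replicates 1, 2 and 3. All 3 libraries labelled Q-KO were above all wild-type libraries, with a lowest-to-highest ratio of 1.20. The means were 24.4 ± 7.06 FPKM in the libraries labelled Q-KO and 12.9 ± 2.80 FPKM in the wild-type libraries, and the log2 change was 0.86 (SE 0.23, 95% interval 0.33 to 1.39, limma adjusted p = 0.0839). Under all 17 alternatives the change stayed above 0, between 0.64 and 1.02, and the adjusted p was 0.0671 to 0.258. Replicate 3 labelled Q-KO, the highest for Bad, read short transcripts high: the median deviation from the gene mean was 0.26 (log2) for genes with transcripts of at most 2058 bases and -0.19 for genes with transcripts of at least 4642 bases. In the other 5 libraries the genes with short transcripts were between -0.079 and 0.0056. The longest Bad transcript in GENCODE M21 has 1533 bases. With the trend removed, Bad had a log2 change of 0.74 (adjusted p = 0.0729). Bad also shares exon bases with Gpr137 on the opposite strand, and strand-specific counting is not stated, so its level is uncertain. Gpr137 was at 6.70 ± 1.16 FPKM in the libraries labelled Q-KO and 4.36 ± 0.63 FPKM in the wild-type libraries (log2 change 0.52, limma adjusted p = 0.147).

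Bid, Bbc3 and Bcl2l11 encode the BH3-only proteins that can activate BAX and BAK directly. Bid was the most abundant BH3-only transcript by group mean, although Pmaip1 exceeded it in replicate 1 labelled Q-KO. Bid was at 40.0, 41.5 and 42.5 FPKM in the libraries labelled Q-KO, against 34.2, 35.9 and 39.0 FPKM in the wild-type libraries. Its values did not overlap, but the gap was small and the log2 change of 0.18 did not pass (SE 0.12, 95% interval -0.091 to 0.45, limma adjusted p = 0.42). Bid shares exon bases with Bcl2l13 on the opposite strand and is uncertain for the same reason as Bad. Bbc3, which like Pmaip1 is a p53 target, was at 8.36, 10.7 and 9.74 FPKM in the libraries labelled Q-KO, against 8.66, 7.46 and 9.24 FPKM in the wild-type libraries. These values overlapped, and the log2 change was 0.16 (SE 0.15, limma adjusted p = 0.578), with a 95% interval of -0.19 to 0.52 that lies below the interval of Pmaip1. That difference between the genes was not tested in itself, and the Bbc3 change was -0.020 after a GC trend was removed. Bcl2l11 was the scarcest BH3-only transcript, at 2.63, 3.05 and 2.14 FPKM in the libraries labelled Q-KO, against 3.06, 4.10 and 1.73 FPKM in the wild-type libraries. The wild-type range enclosed the other group, and the log2 change was -0.097 (SE 0.25, 95% interval -0.67 to 0.48, limma adjusted p = 0.858). It turned to 0.11 without wild-type replicate 2 and to 0.40 with the Y-linked covariate, without passing.

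Neither effector passed the test. Bax was the most abundant member, at 187, 208 and 264 FPKM in the libraries labelled Q-KO, against 228, 198 and 200 FPKM in the wild-type libraries. The groups overlapped, and the log2 change of 0.064 (SE 0.16, 95% interval -0.31 to 0.43, limma adjusted p = 0.855) turned below 0 after median-of-ratios scaling (-0.024), after removal of a trend with length (-0.068) or GC content (-0.11), and without replicate 3 labelled Q-KO (-0.076). Its longest transcript has 1100 bases, it shares exon bases with the predicted gene Gm45808 on the same strand, which was not analysed here, and it was highest in that same replicate 3, which read short transcripts high. Bak1 was at 31.2, 34.8 and 37.9 FPKM in the libraries labelled Q-KO, against 26.6, 31.4 and 21.8 FPKM in the wild-type libraries. The groups touched, since wild-type replicate 2 lay just above replicate 1 labelled Q-KO, and the log2 change was 0.38 (SE 0.16, 95% interval 0.0072 to 0.75, limma adjusted p = 0.223). It was 0.64 (adjusted p = 0.0966) with the Y-linked covariate, and above 0 under all 17 alternatives. Bak1 shares exon bases with Ggnbp1 on the opposite strand, whose mean was 3.98 FPKM in the libraries labelled Q-KO and 3.39 FPKM in the wild-type libraries.

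**Figure D3:**
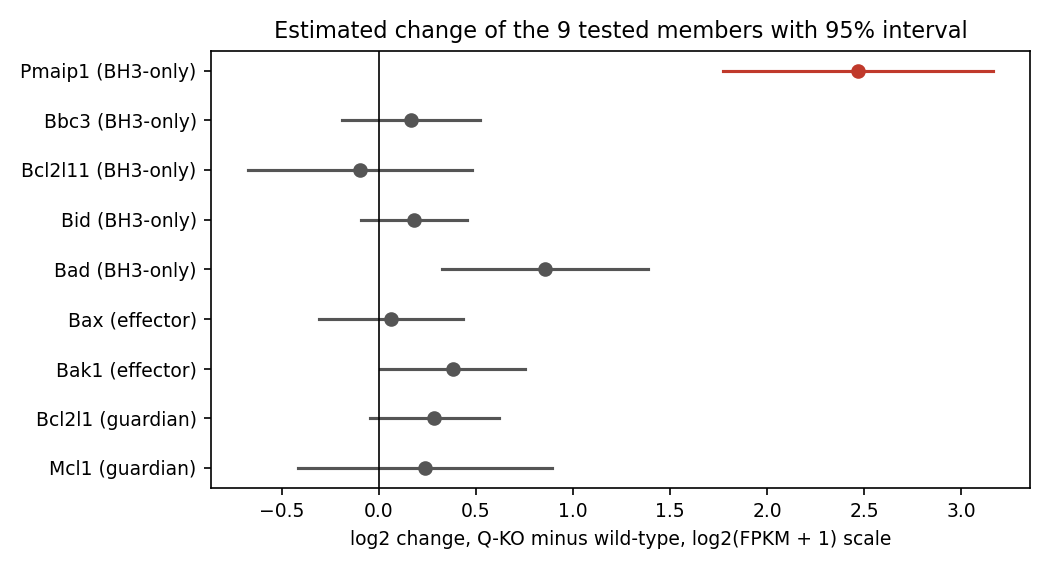
Log2 change (Q-KO minus wild-type, x axis) of the 9 tested members with its 95% interval; red marks an adjusted p below the threshold. Pmaip1 is at 2.47 with an interval of 1.77 to 3.16, and the other 8 estimates lie between -0.097 and 0.86.

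Among the guardians, Mcl1 and Bcl2l1 were expressed and Bcl2 stayed below 0.1 FPKM. Mcl1 encodes a short-lived guardian on which early embryos depend. It was at 128, 135 and 138 FPKM in the libraries labelled Q-KO, against 120, 172 and 70.4 FPKM in wild-type replicates 1, 2 and 3. The wild-type range enclosed the other group, and the log2 change was 0.24 (SE 0.28, 95% interval -0.42 to 0.89, limma adjusted p = 0.676). It was -0.10 without wild-type replicate 3, and 0.92 (adjusted p = 0.0501) with the Y-linked covariate, which rests on that library. Bcl2l1 encodes BCL-XL and was at 16.0, 16.5 and 16.1 FPKM in the libraries labelled Q-KO, against 15.6, 11.8 and 12.3 FPKM in the wild-type libraries. The values did not overlap, by a ratio of 1.03 between the nearest libraries, and the log2 change of 0.29 did not pass (SE 0.14, 95% interval -0.048 to 0.62, limma adjusted p = 0.3). Gene-level values do not separate its long antiapoptotic and short proapoptotic splice forms.

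Bcl2, the founding guardian, was at 0.0957, 0.0836 and 0.0787 FPKM in the libraries labelled Q-KO, against 0.0222, 0.0319 and 0.00996 FPKM in the wild-type libraries. It was higher in each library labelled Q-KO, but every value was far under the 1 FPKM used as a filter. In GENCODE M21 it shares exon bases with the antisense gene D630008O14Rik, which was not analysed here. The log2(FPKM + 1) difference was 0.089. With no filter on low values Bcl2 passed the limma test (adjusted p = 0.0368), where 2.65% of 19581 genes did. Of the genes that passed in that fit 81.9% were rises, as Bcl2 was.

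G1 cyclins act with their kinases on the RB proteins, which restrain E2F factors, and E2F1 is known to activate several BH3-only genes. The RefSeq promoter table (GRCm38.p6) was therefore searched for 4 E2F strings, TTTCCCGC, TTTCGCGC, TTTGCCGC and TTTGGCGC, on both strands of the 250 bases before each start. It held 15 starts for 9 of the members and none for Pmaip1. A match was found for 1 of the 9, Bcl2l1, at 1 of its 3 listed starts. That is 1 of the 15 starts, where 1.86% of all 32851 promoters held a match. A full p53 site, searched in the same bases, was found for 0 of the 9 and in 0.0639% of all promoters. The Bcl2l1 promoter with the string is shown with that of Mcl1, the other expressed guardian, which holds none. Capitals mark the string, read on the reverse strand from 145 to 138 bases before the start. The Bcl2l1 bases are chr2:152830718-152830967 (minus strand) and the Mcl1 bases chr3:95658471-95658720 (plus strand).
Bcl2l1: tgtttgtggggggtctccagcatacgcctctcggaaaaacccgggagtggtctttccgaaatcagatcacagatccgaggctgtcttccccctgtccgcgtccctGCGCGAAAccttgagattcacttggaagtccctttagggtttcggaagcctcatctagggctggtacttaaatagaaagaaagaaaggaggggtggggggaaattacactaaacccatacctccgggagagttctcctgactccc
Mcl1: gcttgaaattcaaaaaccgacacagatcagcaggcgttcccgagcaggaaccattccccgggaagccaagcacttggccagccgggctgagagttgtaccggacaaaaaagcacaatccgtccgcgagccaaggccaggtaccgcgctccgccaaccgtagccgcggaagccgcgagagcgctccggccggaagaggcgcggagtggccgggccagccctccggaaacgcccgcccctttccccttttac
A match is a description of letters and not a binding site, and no value in these libraries bears on binding there.

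The order of transcript levels was alike in both groups but for Pmaip1 and the pair of Bad and Bcl2l1. In the libraries labelled Q-KO it ran Bax (220 ± 39.8 FPKM), Mcl1 (134 ± 5.28), Bid (41.3 ± 1.23), Bak1 (34.6 ± 3.34), Pmaip1, Bad, Bcl2l1 (16.2 ± 0.257), Bbc3 (9.61 ± 1.19), Bcl2l11 (2.61 ± 0.454) and Bcl2. In the wild-type libraries it ran Bax (209 ± 16.9 FPKM), Mcl1 (121 ± 50.8), Bid (36.4 ± 2.42), Bak1 (26.6 ± 4.80), Bcl2l1 (13.2 ± 2.04), Bad, Bbc3 (8.45 ± 0.905), Pmaip1, Bcl2l11 (2.96 ± 1.19) and Bcl2. Pmaip1 stood 5th in the libraries labelled Q-KO and 8th in the wild-type libraries. Neighbours whose values overlapped were Bak1 with Pmaip1 and Pmaip1 with Bad in the libraries labelled Q-KO, and Bcl2l1 with Bad and Pmaip1 with Bcl2l11 in the wild-type libraries. Bad and Bcl2l1 were apart in the libraries labelled Q-KO.

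Summed over the class, BH3-only transcripts were at 111, 103 and 115 FPKM in the libraries labelled Q-KO, against 67.1, 64.3 and 65.8 FPKM in the wild-type libraries. The groups were apart, and Pmaip1 made up 24.4% to 36.9% of the sum in the libraries labelled Q-KO and 4.04% to 10.7% in the wild-type libraries. Without Pmaip1 the sum of the other 4 was 69.8, 77.5 and 86.7 FPKM in the libraries labelled Q-KO, against 61.5, 57.5 and 63.1 FPKM in the wild-type libraries. The effectors summed to 218, 243 and 302 FPKM in the libraries labelled Q-KO, against 255, 229 and 222 FPKM in the wild-type libraries. The guardians summed to 144, 152 and 154 FPKM in the libraries labelled Q-KO, against 135, 184 and 82.7 FPKM in the wild-type libraries, so both of these classes overlapped between groups. Set against Mcl1, the guardian that NOXA binds, Pmaip1 had a ratio of FPKM of 0.319, 0.185 and 0.206 in the libraries labelled Q-KO, against 0.0470, 0.0398 and 0.0378 in the wild-type libraries. Such a ratio is taken within a library and does not depend on its scaling. A trend with transcript length, as in replicate 3 labelled Q-KO, is not removed by it. Bcl2l11 over Mcl1 was also apart, in the other direction, at 0.0205, 0.0226 and 0.0155 in the libraries labelled Q-KO, against 0.0256, 0.0239 and 0.0245 in the wild-type libraries. Bad over Bcl2l1 was apart and higher, at 1.17, 1.35 and 2.01 in the libraries labelled Q-KO, against 1.00, 0.848 and 1.07 in the wild-type libraries. Bbc3 over Mcl1 overlapped, at 0.0654 to 0.0794 in the libraries labelled Q-KO and 0.0434 to 0.131 in the wild-type libraries. The ratio of Bax to Bcl2l1 overlapped between groups only through replicate 3 labelled Q-KO. It was at 11.7, 12.6 and 16.4 in the libraries labelled Q-KO, against 14.7 to 16.8 in the wild-type libraries. These sums and ratios describe the libraries and were not tested.

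**Figure D4:**
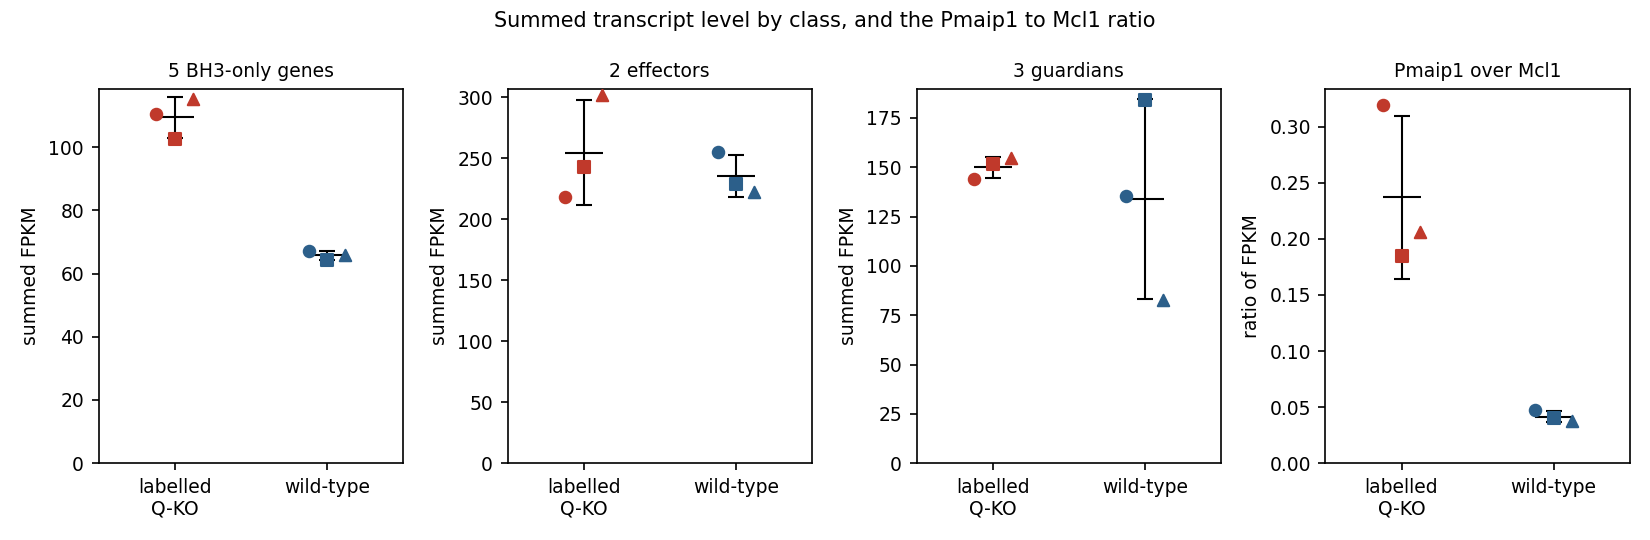
Summed FPKM of the 5 BH3-only genes, the 2 effectors and the 3 guardians, and the ratio of Pmaip1 to Mcl1 FPKM, in each library (points, shape by replicate number) with mean and SD (black, n = 3). The BH3-only sums are at 103 to 115 FPKM in the libraries labelled Q-KO and at 64.3 to 67.1 FPKM in wild-type, while the effector and guardian sums overlap.

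Within the wild-type group the members split between libraries. Wild-type replicate 2 was the highest and wild-type replicate 3 the lowest of that group for the same 5 members, Pmaip1, Bcl2l11, Bak1, Bcl2 and Mcl1. The highest wild-type value was 2.44 times the lowest for Mcl1, 2.38 times for Bcl2l11 and 2.58 times for Pmaip1. In the libraries labelled Q-KO the same ratios were 1.08 for Mcl1, 1.42 for Bcl2l11 and 1.63 for Pmaip1. Replicate 1 labelled Q-KO was the lowest of its group for 7 of the 10 members and the highest for Pmaip1 and Bcl2.

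For the most abundant member of each class, the genes with the most similar pattern over the 6 libraries were sought among 8130 others with a mean of at least 5 FPKM, by Pearson's r of log2(FPKM + 1). Bid was most like Lamp1 (0.992), Nprl3 (0.988) and Fam25c (0.985). Bax was most like Dnajc17 (0.994), Commd5 (0.994) and Med27 (0.983). Mcl1 was most like Rnf19b (0.998), Bhlhe40 (0.993) and Snx9 (0.992). These values of r describe 6 points that share library depth and composition, and were not tested.

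Around the family, 62 tested genes of 6 apoptosis lists held no change that passed limma's test over all genes. Before adjustment 11 of the 62 were under 0.05, 9 higher and 2 lower, where 21.5% of all genes tested were, 14.8% as higher, so that share is no larger than the background, against which the counts below are also to be read. Among the other BCL2 family genes 0 of 11 tested members passed and 2 had an unadjusted p under 0.05. The list had a median log2 change of -0.055. Moap1, a BAX-binding adaptor, was at 3.95, 2.10 and 2.65 FPKM in the libraries labelled Q-KO, against 1.68, 0.878 and 1.29 FPKM in the wild-type libraries (log2 change 0.76, limma adjusted p = 0.116), with no overlap. Bnip3, a mitophagy receptor induced by hypoxia, was at 13.6, 15.5 and 33.9 FPKM in the libraries labelled Q-KO, against 69.2, 128 and 17.3 FPKM in the wild-type libraries (log2 change -1.44, limma adjusted p = 0.254). The groups overlapped through wild-type replicate 3, and without that library Bnip3 fell by 2.23 (adjusted p = 0.0175).

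Downstream of the mitochondria, 0 of 13 tested apoptosome and caspase genes passed limma's test, 2 had an unadjusted p under 0.05, and 11 had a log2 change above 0 with a median of 0.24. Cycs, cytochrome c itself, was at 56.8 ± 3.64 FPKM in the libraries labelled Q-KO and 48.6 ± 10.9 FPKM in the wild-type libraries (log2 change 0.24, limma adjusted p = 0.457). Htra2, a mitochondrial protease that antagonises inhibitors of apoptosis once released, was at 20.8, 23.4 and 25.6 FPKM in the libraries labelled Q-KO, against 17.4, 17.2 and 12.7 FPKM in the wild-type libraries. Its values did not overlap and its log2 change was 0.54 (SE 0.16, limma adjusted p = 0.111). Among the inhibitors of apoptosis 0 of 6 passed and 1 had an unadjusted p under 0.05, with a median of -0.21. Birc5, survivin, which also serves chromosome segregation, was at 119 ± 15.5 FPKM in the libraries labelled Q-KO and 144 ± 12.9 FPKM in the wild-type libraries (limma adjusted p = 0.296). Birc2, the ubiquitin ligase cIAP1, was at 23.3 ± 1.39 FPKM in the libraries labelled Q-KO and 18.4 ± 2.04 FPKM in the wild-type libraries (limma adjusted p = 0.206).

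In the death receptor pathway 0 of 6 tested genes passed limma's test, 2 had an unadjusted p under 0.05, and the median was 0.31. Tnfrsf10b, the receptor for the death ligand TRAIL, was at 17.2, 21.0 and 18.4 FPKM in the libraries labelled Q-KO, against 13.1, 13.9 and 8.48 FPKM in the wild-type libraries. The groups were apart, and the log2 change was 0.65 (SE 0.20, limma adjusted p = 0.111). With the Y-linked covariate Tnfrsf10b (1.06, adjusted p = 0.0196) and Htra2 (0.81, adjusted p = 0.0444) passed. That fit sets the libraries labelled Q-KO against wild-type replicate 3 alone, which was the lowest wild-type library for both genes. Among genes of MCL1 turnover and the outer mitochondrial membrane 0 of 14 passed, 1 had an unadjusted p under 0.05, and the median was 0.0025. Fbxw7, a ubiquitin ligase subunit that marks both MCL1 and cyclin E for breakdown, was at 15.3, 15.7 and 11.6 FPKM in the libraries labelled Q-KO, against 11.1, 11.3 and 8.77 FPKM in the wild-type libraries (log2 change 0.41, limma adjusted p = 0.207). Vdac1, a channel of the outer membrane and the most abundant gene of that list, was at 419 ± 37.4 FPKM in the libraries labelled Q-KO and 471 ± 46.0 FPKM in the wild-type libraries (limma adjusted p = 0.537).

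Of the transcription factors and their regulators known to act on BH3-only genes, 0 of 12 tested members passed limma's test, 3 had an unadjusted p under 0.05, and the median was 0.15. Atf4, a factor of the integrated stress response, was the most abundant, at 215 ± 28.4 FPKM in the libraries labelled Q-KO and 221 ± 13.8 FPKM in the wild-type libraries (limma adjusted p = 0.884). Mdm4, an inhibitor of p53, was at 29.2, 28.9 and 16.2 FPKM in the libraries labelled Q-KO, against 40.4, 38.1 and 42.7 FPKM in the wild-type libraries. The groups were apart, and the log2 change was -0.73 (SE 0.22, limma adjusted p = 0.114). Mdm4 passed only once a trend with transcript length was removed (-0.74, adjusted p = 0.0419). Named after their values were seen, Trp53 itself was at 148, 150 and 123 FPKM in the libraries labelled Q-KO, against 181, 122 and 162 FPKM in the wild-type libraries (log2 change -0.13, limma adjusted p = 0.720). Mdm2, the gene of its ubiquitin ligase and another named in this way, was at 47.6, 48.3 and 35.5 FPKM in the libraries labelled Q-KO, against 39.5, 35.6 and 39.2 FPKM in the wild-type libraries (log2 change 0.18, limma adjusted p = 0.526). Both overlapped between groups. Ddit3, which encodes the stress factor CHOP and is also named in this way, was at 26.5, 48.7 and 48.8 FPKM in the libraries labelled Q-KO, against 14.4, 32.6 and 11.7 FPKM in the wild-type libraries (log2 change 1.12, limma adjusted p = 0.141). Ddit3 passed only without wild-type replicate 2, its highest wild-type library, with a rise of 1.54 (limma adjusted p = 0.0389).

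**Figure D5:**
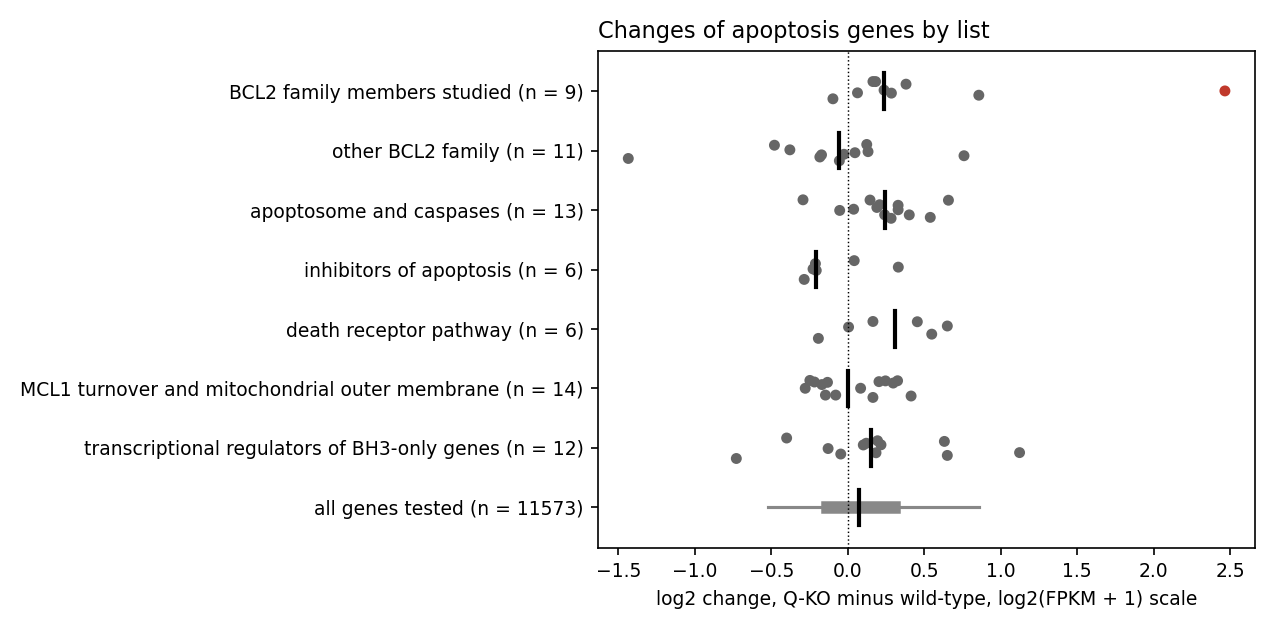
Log2 change (Q-KO minus wild-type, x axis) of each tested gene of the 10 members and of 6 apoptosis lists (points, red where the adjusted p is below the threshold), with the list median as a black bar; for all 11573 genes tested the thick bar spans the 25th to 75th and the thin line the 5th to 95th percentile. Pmaip1 at 2.47 is the red point, and the medians of the 6 lists lie between -0.21 and 0.31.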

How the data were processed

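FPKM values, by gene symbol and library, are what the authors deposited, in 1 table from which 1 stray header row was dropped. The submitters' processing notes name STAR 2.5, Cufflinks, bcl2fastq 2.16, CASAVA and build mm9, with no role or order. Annotation, strand setting and depth have no statement in the sources used here, so no counting interval was computed. Gene-level FPKM spreads reads over close copies and overlapping genes, and can shift with transcript length. Libraries were grouped by genotype label, with replicate numbers from the titles.

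Values were analysed as log2(FPKM + 1), which understates the change of low genes, with limma 3.58.1 in R 4.3.3 (intensity trend, two-sided, Benjamini-Hochberg over 11573 genes, threshold 0.05), and the script was tested on simulated data. Overlaps with other genes and transcript lengths came from GENCODE M21 (GRCm38), by name. A length was found for 95.3% of tested genes. Alternatives were leaving out each library, the replicate number as a block, a covariate for presence of Y-linked transcripts, scaling by quantiles or by median of ratios, a robust prior or no intensity trend, a pseudocount of 0.1, and a filter at 5 FPKM or none. Removal of trends with length or GC content was added after seeing the data. The members, lists and tests were chosen with earlier results of these data known. The text names all members and, per list, the calls or, with none, the most abundant gene and that with the smallest p. Trp53, Mdm2 and Ddit3 fall outside this rule and were added after their values were seen.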

Additional observations from a re-analysis of the deposited data

How the results depend on the processing

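The rise of Pmaip1 passed under all 11 alternatives that kept the 6 libraries (log2 change 2.37 to 3.12) and in 4 of the 6 that left out 1, with changes of 2.14 to 2.69 and an adjusted p of up to 0.0564. Between 0 and 1 of the members passed when 1 library was left out, and 2 with no filter on low values, the second being Bcl2. Bax turned below 0 after median-of-ratios scaling (-0.024), without the length trend (-0.068), without the GC trend (-0.11) and without replicate 3 labelled Q-KO (lowest -0.076, highest 0.17 over the 6). Bbc3 did without the GC trend (-0.020), Mcl1 without wild-type replicate 3 (-0.10 to 0.54 over the 6), and Bcl2l11 turned above 0 without wild-type replicate 2 (-0.34 to 0.11 over the 6) and with the Y-linked covariate (0.40); the cause was not tested. Of the genes in the lists, 1 of 80 passed with no filter (Naip1, not among the 62 tested otherwise), and of the 62, 2 with that covariate, 1 without the length trend and 0 to 1 with a library left out. Over all genes 470 passed, 266 with a mean of at least 5 FPKM (fewer genes tested), 894 with that covariate, and 28 to 566 with a library left out: 187, 28 and 85 without replicates 1, 2 and 3 labelled Q-KO and 94 without wild-type replicate 1. The labels do not say that replicate numbers pair the libraries, so the numbers were not taken as pairs. Deviations from the group mean had an r of -0.028, 0.012 and 0.022 between same-numbered libraries. Between other libraries of the 2 groups r ran from -0.129 to 0.171. With 3 libraries per group these values cannot settle whether libraries were paired. With the replicate number as a block 333 genes passed, as did Pmaip1 (adjusted p = 0.0162), and no other member did. Depth is unknown, so small differences of scarce transcripts such as Bcl2l11 and Bcl2 may lie within counting error.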
